A study of Mus musculus with 6 samples.

Results

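The genes described here encode assembly factors of cytochrome c oxidase, the last complex of the respiratory chain. They were compared between induced pluripotent stem (iPS) cells and embryonic stem cells obtained through nuclear transfer (ntES), both derived from tail-tip fibroblasts of G3 Terc-/- mice, which lack the RNA component of telomerase and were bred to generation 3. Of 10 listed genes, 9 had a probe set with exactly 1 gene symbol, 1 probe set each, among 23344 probe sets in all (20746 with 1 symbol). Sco2 has no value here because its only probe set also carries the symbol Tymp. Coa8 was chosen from the measured difference itself, as one of the largest falls among all genes, so its values are given as a description with no test. The other genes were listed for their role in the same process.

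Each group had 3 arrays, called biological repeats of a cell line by the submitters, and each line had been grown on mitomycin C-treated mouse embryonic fibroblast (MEF) feeders. The p-values measure only the spread between these samples, which may be technical, and a line effect and the way of reprogramming cannot be told apart if every array of a group came from a single line. The values are on a log2 scale, and every difference is ntES minus iPS. The title of the study names telomere dysfunction and mitochondrial defects of telomerase-deficient somatic cells, and their relief by reprogramming, as its subject. No array of cells with Terc, of the starting fibroblasts or of fertilization-derived stem cells was analysed here.

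Cytochrome c oxidase passes electrons from cytochrome c to oxygen and pumps protons across the inner mitochondrial membrane. Its catalytic core is made inside mitochondria, must receive heme A and copper and is joined by nuclear-encoded subunits. Dedicated assembly factors carry out these steps. Cox10 and Cox15 make heme A in succession, Cox17 hands copper on to Sco1, Sco2 and Cox11, Surf1 and Coa3 act on the early core subunit, and Coa8 sustains the level of the assembled enzyme. Loss of many of these factors causes oxidase deficiency in patients. Bulk arrays cannot tell fewer cells of a type from less RNA per cell.

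The promoter of Coa8 is shown because the gene starts head to head with Bag5, whose RNA is described beside it below. Those of the heme A enzymes Cox10 and Cox15 are shown as the members whose promoters hold a full GABPA site. Each runs from 250 bases before to 50 bases after the gene start, 5′ to 3′ on the gene's strand, from RefSeq on GRCm38.p6. Capitals mark the core of an ETS factor site, CGGAAG, on either strand (CTTCCG on the other). The window of Coa8 is chr12:111713019-111713318 on the + strand, that of Cox10 chr11:64079423-64079722 on the - strand, and that of Cox15 chr19:43752951-43753250 on the - strand.
Coa8: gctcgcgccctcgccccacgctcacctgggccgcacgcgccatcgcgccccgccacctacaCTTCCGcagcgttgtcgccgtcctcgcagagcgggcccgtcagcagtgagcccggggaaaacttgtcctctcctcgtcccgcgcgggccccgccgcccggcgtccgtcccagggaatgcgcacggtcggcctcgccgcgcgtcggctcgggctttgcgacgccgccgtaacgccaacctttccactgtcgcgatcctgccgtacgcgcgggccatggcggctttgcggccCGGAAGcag
Cox10: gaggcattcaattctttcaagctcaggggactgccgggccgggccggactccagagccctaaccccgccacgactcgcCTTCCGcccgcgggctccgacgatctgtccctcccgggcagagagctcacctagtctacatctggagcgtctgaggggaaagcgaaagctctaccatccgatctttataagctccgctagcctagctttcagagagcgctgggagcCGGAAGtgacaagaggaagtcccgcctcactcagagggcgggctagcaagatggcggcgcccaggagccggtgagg
Cox15: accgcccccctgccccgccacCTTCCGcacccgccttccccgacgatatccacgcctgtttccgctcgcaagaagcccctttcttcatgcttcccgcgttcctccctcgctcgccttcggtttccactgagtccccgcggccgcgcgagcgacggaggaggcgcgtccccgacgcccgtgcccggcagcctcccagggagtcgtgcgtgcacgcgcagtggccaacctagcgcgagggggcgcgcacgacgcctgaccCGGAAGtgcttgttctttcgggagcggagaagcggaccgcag

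Promoter windows were found for 8 of the 9 measured genes, all but Cox17. The ETS core was present in 6 of these 8 (Coa8, Coa5, Cox10, Cox15, Sco1 and Surf1), with 2 matches in each, against 16.9% of all 32851 windows. The longer GABPA site CCGGAAGT, which contains the core, was present in Cox10 and Cox15 and in 3.89% of all windows. The stretch GCGCATGC of the NRF1 site was in none of the 8 and in 2.71% of all windows. The GC box GGGCGG was in 6 of the 8 and in 35.7% of all windows. These motifs were searched on both strands, and a match describes letters only. In the 8 windows 56.0% to 74.0% of bases were G or C, against a median of 52.7% over all windows. The motif shares were not compared among windows of like base content. The Coa8 window had the 74.0%, above 95.2% of all windows, and it held 50 CG dinucleotides.

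Coa8 RNA was 2.68-fold lower in ntES than in iPS cells. The iPS arrays read 9.93, 10.04 and 9.82 for replicates 1 to 3, and the ntES arrays read 8.30, 8.59 and 8.62. The groups lay more than 1 log2 unit apart, and no array came near the other group. The means were 9.93 ± 0.11 and 8.504 ± 0.18 (SD, n = 3 each), a difference of -1.42 ± 0.10 (SE). Ordered from the lowest difference, it stood at place 7 of the 20746 probe sets with 1 symbol, which is how it came to be chosen. The next largest difference in size among the members, that of Cox17, was 0.45.

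**Figure D1:**
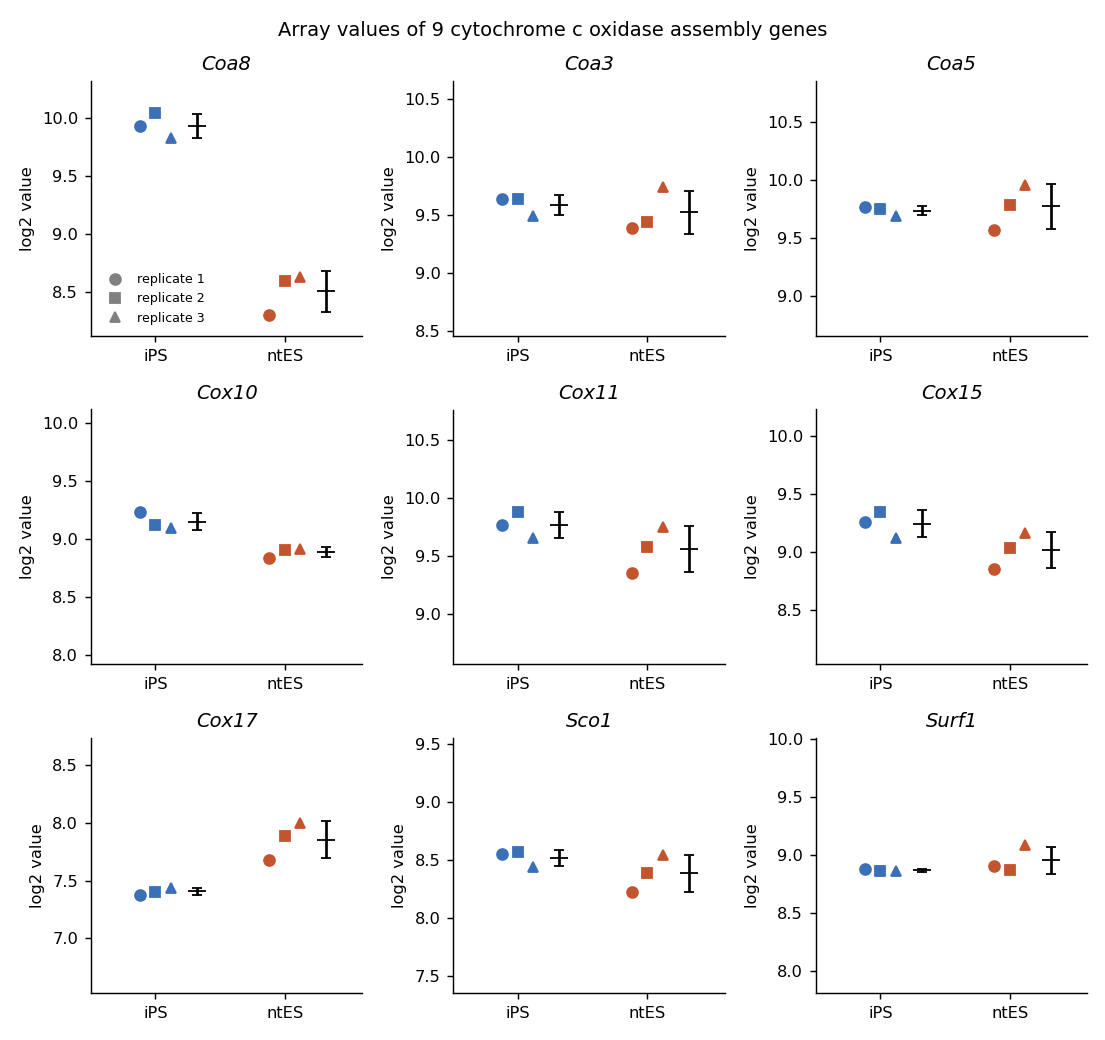
Log2 value of each measured gene on the 6 arrays, with iPS in blue, ntES in orange, a marker shape for each replicate number, and the mean ± SD (n = 3) in black. All panels span the same range of 2.2 log2 units, so that Coa8, with a gap between its groups, can be set against the other genes.

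Of the other 8 genes, Cox17 rose and the other 7 did not pass the test. An adjusted p under 0.05 in limma, a linear model fitted to all probe sets, was the threshold, which 11.3% of all probe sets passed, 5.19% as higher and 6.13% as lower in ntES cells. At an unadjusted p under 0.05, 1 of the 8 was higher and 2 were lower. The median difference of the 8 was -0.10, against 0.04 over all probe sets. All of the 8 but Cox17 lay above the median probe set in mean value. Among the 9674 named genes of that brightness with a place in the gene table, the median was -0.02 and 10.7% fell. Of the 8 genes 2, Cox17 and Cox10, had groups that did not overlap, as did 26.5% of all probe sets. The groups of Coa8 did not overlap either, but it was chosen for its difference. The 8 genes chosen by function thus showed 1 change in 8 tests, near the share of the whole array.

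Copper delivery begins with Cox17, a small cysteine-rich copper chaperone of the intermembrane space. Cox17 read 7.38, 7.40 and 7.44 in iPS cells and 7.68, 7.88 and 8.0 in ntES cells. All ntES arrays lay above all iPS arrays, and ntES replicate 1 was nearest to them. The rise was 0.45 ± 0.09 (log2, SE), or 1.36-fold, with an adjusted p of 0.0134 by limma. Its mean lay at the 49.4th percentile of all probe sets. Background can make a fold change in a dim signal appear smaller, and its part in these values was not tested. When iPS replicate 1 was left out the adjusted p was 0.0763 by limma, and it was 0.0728 or 0.0873 when iPS replicate 2 or ntES replicate 2 was left out, so that the rise no longer passed. Nor did it pass in a plain linear model without limma's shared variance (0.109).

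Downstream of Cox17, Sco1 loads copper onto a core subunit and Cox11 supplies the copper of the oxygen-binding site. Sco1 read 8.55, 8.56 and 8.44 in iPS cells and 8.22, 8.39 and 8.54 in ntES cells. The groups overlapped, with ntES replicate 3 among the iPS arrays, and the difference was -0.13 ± 0.10 (log2, SE; adjusted p = 0.436, limma). Cox11 read 9.76, 9.87 and 9.66 in iPS cells and 9.35, 9.57 and 9.75 in ntES cells. It too overlapped at ntES replicate 3, and its difference was -0.21 ± 0.11 (adjusted p = 0.283, limma).

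The heme A enzymes were both lower on average in ntES cells, and neither passed. Cox10, which attaches the farnesyl tail to heme, read 9.23, 9.12 and 9.09 in iPS cells and 8.83, 8.91 and 8.91 in ntES cells. Every ntES array lay below every iPS array. The difference was -0.27 ± 0.08 (log2, SE), or 1.20-fold, with an adjusted p of 0.0586 by limma and a 95% interval of -0.44 to -0.09. Over the alternative settings its adjusted p ran from 0.000459 with array weights to 0.273 with the replicate number as a block. Cox10 passed without ntES replicate 3 (0.0342, limma) and after each array was centred on its median (-0.32, 0.0283), while the adjusted p was 0.25 and 0.203 without iPS replicate 1 and without ntES replicate 2. Cox15, which oxidizes the product of Cox10 to heme A, read 9.26, 9.35 and 9.12 in iPS cells and 8.85, 9.03 and 9.16 in ntES cells. The groups overlapped between iPS replicate 3 and ntES replicate 3, and the difference was -0.23 ± 0.10 (adjusted p = 0.196, limma).

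The factors of the early core subunit showed the smallest differences. Coa3, which binds that subunit as it is made, read 9.64, 9.64 and 9.49 in iPS cells and 9.39, 9.44 and 9.74 in ntES cells, a difference of -0.07 ± 0.10 (log2, SE; adjusted p = 0.733, limma). Surf1, mutated in a form of Leigh syndrome, read 8.88, 8.86 and 8.86 in iPS cells and 8.90, 8.87 and 9.09 in ntES cells. Its difference of 0.09 ± 0.08 (adjusted p = 0.574, limma) came mostly from ntES replicate 3. Coa5, a cysteine-rich assembly factor, read 9.77, 9.75 and 9.69 in iPS cells and 9.57, 9.78 and 9.96 in ntES cells, a difference of 0.04 ± 0.10 (adjusted p = 0.864, limma). In Coa3 and Coa5 the ntES arrays reached both above and below all iPS arrays. Over the 7 genes that did not pass, the 95% intervals reached no lower than -0.45 and no higher than 0.27.

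**Figure D2:**
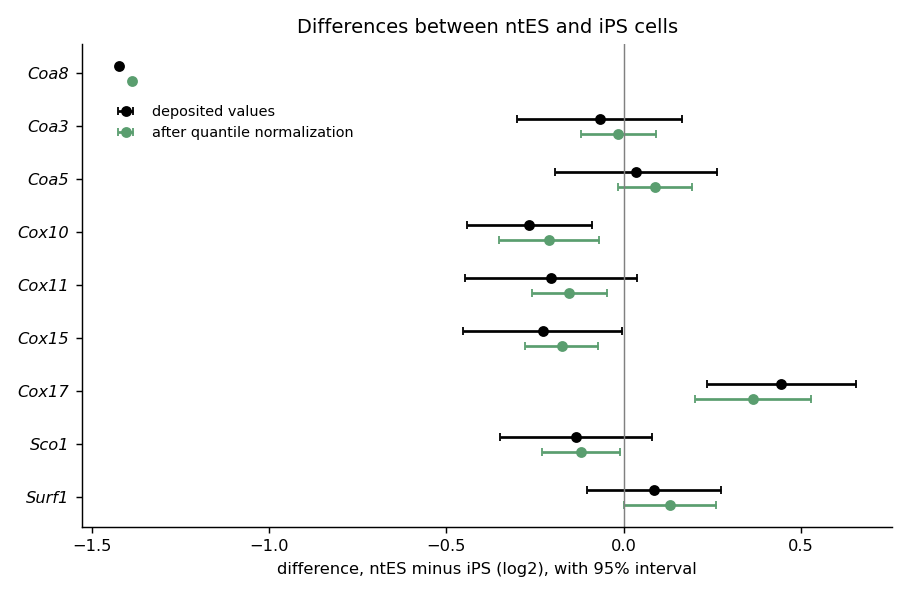
Difference between ntES and iPS cells (log2) with its 95% interval from limma (n = 3 each, no interval for Coa8, which was chosen for its difference), from the deposited values in black and after quantile normalization in green. Coa8 stands at -1.42, and the other genes lie between -0.27 and 0.45.

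Within each group the genes followed a pattern of the brighter probe sets of the array. Replicate 1 was the lowest ntES array for 8 of the 9 genes and replicate 3 the highest for all 9, and among iPS arrays replicate 3 was the lowest for 7. Of the 9 genes 8 lay above the median probe set, all but Cox17 at the 49.4th percentile. Over all probe sets at or above that median, ntES replicate 1 was the lowest in 87.4%, ntES replicate 3 the highest in 86.1% and iPS replicate 3 the lowest in 79.0%, and over all probe sets the shares were 49.5%, 47.2% and 45.0%. The spread over probe sets moved with this, with SDs of 1.51, 1.61 and 1.74 for ntES replicates 1 to 3 and 1.69, 1.69 and 1.59 for iPS replicates 1 to 3. Its part in the members' values was tested only through other scalings. Giving all arrays one distribution by quantile normalization made 4 of the 8 genes pass, 1 higher and 3 lower, where 30.1% of all probe sets passed. Cox10 was then at -0.21 (adjusted p = 0.0321, limma), Cox15 at -0.17 (0.0194), Cox11 at -0.15 (0.0366) and Cox17 at 0.37 (0.00522). Coa8 was at -1.39. Without the array of narrowest spread in each group, iPS replicate 3 and ntES replicate 1, Coa8 was at -1.38.

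As a check of the cells, Pou5f1, Sox2 and Nanog read between 11.4 and 12.3 on average in both groups, and none of the 18 pluripotency markers was dim. Of those 18, Esrrb, Zfp42 and Klf4 fell by 0.79, 0.49 and 0.47, and none rose (5 lower and 2 higher at an unadjusted p under 0.05, limma). Summed over the 18, the linear signal ran from 42073 to 48960 on iPS and from 38439 to 50638 on ntES arrays. Of 30 measured fibroblast markers, which the feeder cells express, 10 rose and 1, Thy1, fell by 0.60, and 27 lay above 0. Over all probe sets 5.19% rose and 6.13% fell, and the median difference was 0.04, against 0.28 for these markers. Timp3, Ccn2, Postn and Ccn1 rose by 0.89, 0.77, 0.74 and 0.63, and Col1a1 and Col1a2 by 0.47 and 0.45. Their summed signal ran from 41563 to 51222 on iPS and from 51036 to 65522 on ntES arrays, and 4 of the 30 had a mean below the median probe set. The part of feeder RNA in the members' differences was not tested. The Terc probe set read from 7.62 to 7.90 on all arrays, and since it is not known here whether its probes lie in the deleted part, it checks no label. Array medians lay between 7.61 and 7.70, and the number of arrays limits the precision.

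Some genes near Coa8 on chromosome 12 also fell in ntES cells. Of the 10 measured named genes on each side of it in gene order, 6 of 20 fell and none rose by limma, against 6.18% lower among the 19266 genes with a place in the gene table. On chromosome 12 as a whole 18.1% of placed genes fell. The median difference of the 20 neighbours was -0.16, with 13 below 0 and 7 above. Of the 11 neighbours whose mean was at or above the median probe set, all lay below 0 and 6 fell. Among all 9674 placed genes of that brightness 53.6% lay below 0 and 10.7% fell. Trmt61a, a tRNA methyltransferase subunit, fell by 0.76 ± 0.08 (log2, SE; adjusted p = 0.000304, limma). Xrcc3, a recombination factor, and Zfyve21, an endosomal protein, fell by 0.58 and 0.39, and Atp5mpl, a small protein of ATP synthase, fell by 0.53. The kinases Mark3 and Cdc42bpb fell by 0.46 and 0.39. With 5 genes on each side, 5 fell. When iPS replicate 1, iPS replicate 2 or ntES replicate 2 was left out, 2 of the 20 fell in each case. Over all 23344 probe sets 562, 547 and 545 fell in these fits, in place of 1431.

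The closest neighbour on each side of Coa8 did not pass the test. Bag5, a co-chaperone of Hsp70, starts next to Coa8 on the opposite strand, and its promoter windows overlap that of Coa8 printed above by 112 and 185 bases. Bag5 read 8.39, 8.41 and 8.20 in iPS cells and 8.13, 8.20 and 8.20 in ntES cells, so that the groups touched. Its difference was -0.16 ± 0.09 (log2, SE; adjusted p = 0.297, limma). The table gives Bag5 the same value, to 6 decimals, on 3 arrays (8.20), and 20.03% of all probe sets have a value that at least 2 arrays share. On the other side Klc1, a kinesin light chain, differed by -0.24 ± 0.11 (adjusted p = 0.214, limma). Xrcc3 and Zfyve21, farther along, also start head to head, with windows that overlap by 150 and 210 bases, and there both genes fell.

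**Figure D3:**
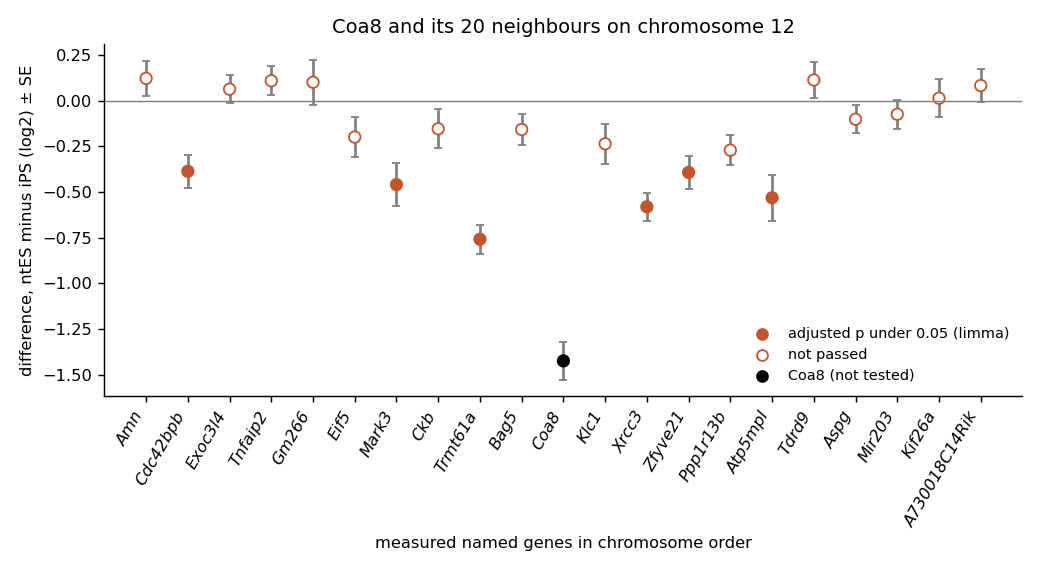
Difference between ntES and iPS cells (log2 ± SE, n = 3 each) for Coa8 and the 10 measured named genes on each side, in chromosome order and evenly spaced. Filled orange points passed an adjusted p of 0.05 in limma, and Coa8 (black, not tested) lies below all neighbours, the lowest of which, Trmt61a, is at -0.76.

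Around each of the other members fewer than 6 of the 20 neighbours fell. Cox11 lay between Stxbp4 and Tom1l1, which fell by 0.46 (adjusted p = 0.0274, limma) and 0.60 (0.00559), and 3 of its 20 neighbours fell and 1 rose. Around Coa3 4 of 20 fell and 2 rose, around Cox10 2 fell and 3 rose, around Cox15 2 fell, and around Sco1 1 fell. None of the 20 neighbours fell around Coa5, Cox17 or Surf1, and 2, 2 and 0 rose, with medians of 0.03, 0.09 and 0.09. The genes on either side of Cox17, Maats1 and Popdc2, differed by 0.05 and 0.10 and did not pass.

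By chromosome, Coa8 lay on the one with the largest share of falls. Of 626 placed genes on chromosome 12, 113 or 18.1% fell and 33 or 5.27% rose, while the median difference was 0.01. Cox15 lies on chromosome 19, where 14.5% fell and the median was -0.04. Chromosome 11 carries 4 of the 9 genes (Coa3, Cox10, Cox11 and Sco1), and 7.07% of its genes fell. Cox17 lies on chromosome 16, with 4.01% falls, Coa5 on chromosome 1 with 3.49%, and Surf1 on chromosome 2 with 2.14%.

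**Figure D4:**
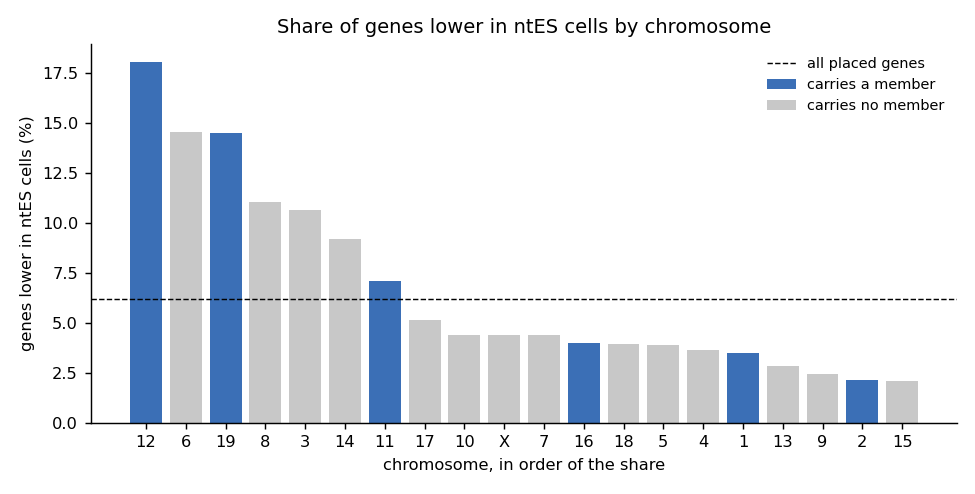
Percent of placed genes that were lower in ntES cells at an adjusted p under 0.05 (limma), for each chromosome but Y, in falling order, with chromosomes that carry a measured member in blue. The dashed line marks 6.18% over all 19266 placed genes, and chromosome 12, which carries Coa8, is highest at 18.1%.

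The 3 named genes whose values followed Coa8 most closely over the 6 arrays were Zfp398, Acyp1 and Eomes, with Pearson r of 0.999 each. They differed by -0.36, -0.50 and -1.11. With 2 groups of 3 arrays such values are set mainly by the gap between groups. Acyp1 also lies on chromosome 12, while Zfp398 and Eomes lie on chromosomes 6 and 9.

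The remaining genes of the oxidase and its cofactors mostly did not pass, as was so for the array as a whole. For this and the following lists, the shares over all probe sets were 11.3% passed, 5.19% as higher and 6.13% as lower. The median difference over all probe sets was 0.04. Among placed genes at or above the median probe set it was -0.02, and 10.7% fell. Below the median probe set lay 1 of the other assembly factors, 5 subunits, 3 copper genes and 2 heme genes. Of 19 measured other assembly factors, 2 fell and none rose by limma (5 lower and 1 higher at an unadjusted p under 0.05), with a median of 0.00. Slirp, which protects mitochondrial messenger RNAs, read 10.85, 10.89 and 10.69 in iPS cells and 10.22, 10.33 and 10.55 in ntES cells. It fell by 0.45 ± 0.10 (log2, SE; adjusted p = 0.0193, limma) and lies on chromosome 12, like Coa8. A subunit gene on that chromosome differed by 0.16 and did not pass. Cmc2, a cysteine-rich assembly factor encoded on chromosome 8, fell by 0.44 ± 0.10 (adjusted p = 0.0177). In Slirp and Cmc2 all ntES arrays lay below all iPS arrays. When iPS replicate 1, iPS replicate 2 or ntES replicate 2 was left out, 0 of these factors passed, and without ntES replicate 3 5 fell. Over all probe sets 1134, 1042 and 1014 passed without iPS replicate 1, iPS replicate 2 and ntES replicate 2, in place of 2643. Without ntES replicate 3, 5044 passed, and these totals apply to the lists below too.

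Of 19 measured subunits of the oxidase, 2 fell and none rose by limma (3 lower and 0 higher at an unadjusted p under 0.05), and 12 lay above 0, with a median of 0.09. Cox6b2, a testis-type subunit, fell by 0.61 ± 0.13 (log2, SE; adjusted p = 0.0152), and Cox4i1, the common form of a regulatory subunit, by 0.42 ± 0.11 (0.0332). No subunit passed when iPS replicate 1, iPS replicate 2 or ntES replicate 2 was left out, 1 passed without ntES replicate 1, and 5 passed without ntES replicate 3, 1 of them higher.

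Of 12 genes of copper handling, 1 rose and none fell by limma (4 higher and 0 lower at an unadjusted p under 0.05), and 10 lay above 0, with a median of 0.14. Mt1, a metallothionein that binds copper and zinc, read 11.35, 11.50 and 11.26 in iPS cells and 11.83, 11.93 and 12.16 in ntES cells. It rose by 0.61 ± 0.10 (log2, SE; adjusted p = 0.00468), in the same direction as Cox17, and its groups did not overlap. Without ntES replicate 1 the list had 3 genes higher, and without ntES replicate 3 it had 1 higher and 1 lower. Of 15 measured genes of heme synthesis and ferredoxin, 1 fell and none rose by limma (1 lower and 0 higher at an unadjusted p under 0.05), with a median of 0.08. This was Slc25a39, a mitochondrial carrier, which fell by 0.55 ± 0.12 (log2, SE; adjusted p = 0.0177). With iPS replicate 1, iPS replicate 2 or ntES replicate 2 left out, 0 genes of the list passed, and with ntES replicate 3 left out 2 fell.

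**Figure D5:**
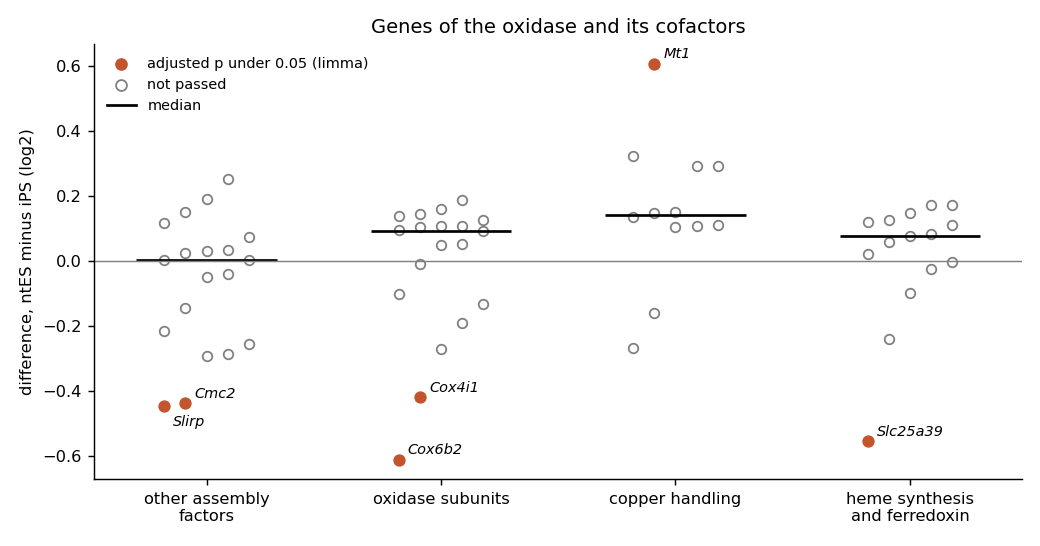
Difference between ntES and iPS cells (log2) for each measured gene of 4 lists, 1 probe set per gene, with genes that passed an adjusted p of 0.05 in limma filled and named and the list median as a black line. Mt1 rose, while Slirp, Cmc2, Cox4i1, Cox6b2 and Slc25a39 fell by 0.42 to 0.61.

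After quantile normalization, which raised the share of probe sets called from 11.3% to 30.1%, 8 of the 19 other assembly factors passed, 2 of them higher. Of the subunits 6 passed, 2 of them higher, of the copper genes 8, 6 of them higher, and of the heme genes 7, 5 of them higher. Centring the arrays on their medians left 2734 probe sets called in place of 2643, with 30.1% of them higher in place of 45.9%.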

How the data were processed

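RNA was measured on 6 Affymetrix arrays, and the submitters' processing notes name GCOS 1.4. Total RNA was taken with Trizol and labelled with a WT Terminal Labeling Kit, per the labels' protocols. The deposited table holds log2 values of 23344 probe sets, from 3.61 to 13.7, a scale taken from the values themselves. How the background was corrected and the arrays normalized, and on which genome build, is not stated in any source used here.

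Groups came from the titles. Symbols came from the platform annotation (1183 probe sets carry several symbols and 1415 are not listed). limma 3.58.1 in R 4.3.3 (lmFit and eBayes, tested on simulated data) was fitted to all probe sets without covariates or further scaling, with Benjamini-Hochberg adjustment. Where a gene of a list had several probe sets, that of highest mean was used. The GRCm38.p6 gene table served for gene order. Figures used Python 3.11.15 and matplotlib 3.10.9.

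The members and lists were chosen with earlier results of these data known. Named genes were all members, up to 4 called genes of each list or the 2 of smallest p, the neighbours of each member, called neighbours of Coa8, the 3 genes most alike to Coa8, and fixed checks. Alternatives were other scalings, filters, variance models, thresholds and left-out arrays, 1 of them added after seeing the data.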

Additional observations from a re-analysis of the deposited data

How the results depend on the processing

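The Coa8 difference lay between -1.48 and -1.32 in the 10 alternatives that can move a difference of means. The other 5 leave it as it is by construction. Of the other members' differences, Cox17 kept its direction in all 14 that held it, some of which cannot move it by construction, and passed in 10. Counts of called genes depended on the setting.

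Quantile normalization called 7035 probe sets, 4 members besides Coa8, 11 lower neighbours of Coa8, 8 other assembly factors, 6 subunits, 8 copper, 7 heme, 15 pluripotency and 19 fibroblast genes. Array weights called 13147, 6, 11, 12, 10, 8, 6, 14 and 23 in the same order. Those weights gave ntES replicate 2 a value of 10.9, against 0.22 to 1.99 for the other arrays, and came from the gene-by-gene method because the default one did not converge. The unmoderated test called 703 probe sets, 2 neighbours and 0 in every other count. A threshold of 0.01 called 1150 probe sets, 2 neighbours, 5 fibroblast and 1 pluripotency gene, and 0 members, other assembly factors, subunits or heme genes. Median centring called 2734 probe sets and 2 members. Without dim probe sets 2250 of 11672 probe sets passed, 1340 of them lower. In that fit 0 members passed, as Cox17 was left out. There 10 of 20 neighbours fell when the 10 places on each side were filled with bright genes only. Without the 2 arrays of narrowest spread, an alternative chosen after seeing the data, 2984 probe sets and 2 copper genes passed.

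Leaving out 1 array at a time gave 1014 to 5044 called probe sets, 0 to 2 members, 2 to 9 neighbours, 0 to 5 other assembly factors, 0 to 5 subunits, 1 to 3 copper, 0 to 2 heme, 1 to 6 pluripotency and 5 to 15 fibroblast genes. The lowest and highest totals were without ntES replicate 2 and without ntES replicate 3.

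The deviations of same-numbered arrays had correlations of -0.43, -0.10 and -0.72, and the numbers were not taken as pairs. The arrays' unlike spread over probe sets enters these correlations, so they cannot show whether same-numbered arrays belong together. With the replicate block 1983 probe sets were called, 1 member (Cox17, adjusted p = 0.0179) and 5 neighbours.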
